A study of Mus musculus with 20 samples.

Results

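The genes described are 8 coregulators of the androgen receptor: the coactivators Ncoa1, Ncoa2, Ncoa3, Ncoa4, Ep300, Crebbp and Med1 and the corepressor Ncor1. They were chosen by symbol, with earlier results of these data known. All 8 stood among the 43472 genes of the count table, and all 8 passed the filter on low counts that left 15261 genes for testing. Expression was measured by bulk RNA sequencing of ventral prostates from male mice, each of which had been orchidectomised, so that all groups had lost the androgen of the testis. The 4 groups of 5 libraries were ARNoC/Y with testosterone, ARNoC/Y with vehicle, wild type (WT, C57BL/6J) with testosterone and WT with vehicle, the replacement lasting 4 days. ARNoC/Y males carry, on their single X chromosome, an androgen receptor gene altered so that the amino-terminal and carboxyl-terminal domains of the receptor do not interact. Every cell of these animals carries the allele, not the prostate epithelium alone. Gene counts carry no trace of the altered sequence, and the genotype labels could not be checked here. Age, dose and whether each library is a separate animal were not given in the sources used here, so each p-value rests on the spread among the libraries of a group, which may be technical.

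The androgen receptor is a transcription factor that binds DNA once androgen occupies it, and it acts on genes by recruiting other proteins. Coactivators of the p160 family dock on the receptor and bring in histone acetyltransferases and the Mediator complex, which contacts RNA polymerase II. Corepressors bring in histone deacetylases instead. In the prostate, androgen keeps the luminal epithelium alive and secreting, and removal of the testes makes the gland regress.

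Libraries held 8861646 to 21600352 counts. Levels are normalized counts as deposited, meaning counts scaled by the size factor of each library. The 10 genes with the highest counts in a library held 18.4% to 20.8% of its total in ARNoC/Y testosterone libraries and 6.81% to 10.4% in ARNoC/Y vehicle libraries. Their share was 21.4% to 28.1% in WT testosterone libraries and 7.99% to 9.56% in WT vehicle libraries. Scaling by the total count instead of trimmed means of M-values (TMM) moved the median log2 change of all genes with testosterone by -0.35 in ARNoC/Y and -0.42 in WT, and directions that turn under it are named beside each gene. All 8 markers of luminal epithelium were counted, with sums of 50680 to 69800 over the 20 libraries, and the 7 markers of seminal vesicle summed to at most 50.7. Myeloid markers moved with testosterone: 8 of 9 tested were called lower in ARNoC/Y and 9 of 9 in WT. Their summed normalized counts were 2294 to 4257 with testosterone and 2538 to 11000 with vehicle in ARNoC/Y, and 1301 to 2999 with testosterone and 2856 to 16140 with vehicle in WT. Of 10 fibroblast markers, 1 was called lower in ARNoC/Y and 6 in WT, and of 8 smooth muscle markers 4 were called higher in ARNoC/Y and 1 in WT. Of 6 lymphocyte markers tested, 4 were called lower in each genotype, with sums of 30.4 to 68.0 with testosterone and 106.5 to 184 with vehicle in ARNoC/Y, and of 46.0 to 81.5 with testosterone and 129.5 to 245 with vehicle in WT. Of 8 basal markers, 4 were called lower in ARNoC/Y, and 3 lower and 1 higher in WT, and of 8 endothelial markers 0 were called in ARNoC/Y and 3 lower in WT. Of the 8 luminal markers, 2 were called higher and 5 lower in ARNoC/Y, and 2 higher and 4 lower in WT. Beside these marker counts, 19.4% of all genes tested were called higher and 16.8% lower in ARNoC/Y, and 20.4% and 18.8% in WT. In bulk tissue, fewer cells of a type and less RNA per cell cannot be told apart. With a score of stromal markers in the fit, no direction or call of the 8 genes changed in any of the 5 comparisons. The score averages the fibroblast and smooth muscle markers together. Their median log2 changes with testosterone had opposite signs, -0.675 and 0.72 in ARNoC/Y and -1.55 and 0.49 in WT. Such a score may not take out a change of either cell type alone, and the part of each cell type was not tested.

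A pair of sequence features bears on how the counts of these genes can be read. First, Ncoa4 (chr14:32159865-32179855, plus strand, GENCODE M21 on the mouse build mm10) has a processed pseudogene, Gm6768 (chr12:119260978-119262855, plus strand), that is almost identical to its coding sequence. Of the 1878 coding bases of its 3343-base transcript, 1876 are the same in Gm6768, an identity of 99.89%, with no gap and a longest identical run of 1311 bases. The differences are A1312G and G1533A, counted from the first coding base, with the base of Ncoa4 first. The stretch from coding base 1252 to 1371 is shown 5′ to 3′ for both genes to make plain how little separates their reads, with the differing base in capitals.
Ncoa4: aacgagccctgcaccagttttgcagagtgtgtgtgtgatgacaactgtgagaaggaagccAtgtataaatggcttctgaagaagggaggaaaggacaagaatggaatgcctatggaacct
Gm6768: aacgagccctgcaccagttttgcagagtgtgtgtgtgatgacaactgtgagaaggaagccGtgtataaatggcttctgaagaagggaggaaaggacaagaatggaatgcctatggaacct
Of the 50-base words in all Ncoa4 transcripts, 17.9% occur in Gm6768, and of those in the 3343-base transcript, 52.5% do. These shares count only the 1878 bases that GENCODE gives Gm6768; RefSeq gives the pseudogene 3343 bases (chr12:119260933-119264275, GRCm38.p6), as many as that transcript, and the bases outside the GENCODE extent were not analysed here. For the other 7 genes the share of such words found in any other gene was 0.0348% to 1.52%. A read from the shared stretch cannot be given to one gene or the other by its sequence unless it covers one of the differing bases, so the split of counts between Ncoa4 and Gm6768 is uncertain.

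Second, the promoters of the genes that rose with testosterone in both genotypes can be read for the core of the androgen response element. The core TGTTCT, read as AGAACA on the other strand, was searched on both strands in windows from 250 bases before to 50 bases after each annotated start (RefSeq, GRCm38.p6). The table held 9 windows for 6 of the 8 genes, and Ncoa2 and Ncoa3 were not matched. The core stood in 5 of these 9 windows and in 19.0% of 32851 windows of all genes. The full palindrome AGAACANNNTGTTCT, which holds both forms of the core, stood in 0 of the 9 windows and in 3 windows of all genes. A window of Ncoa4 (chr14:32165539-32165838, plus strand) and the window of Ncoa1 (chr12:4477133-4477432, minus strand) are shown 5′ to 3′, since these were the coactivator genes that rose in both genotypes, with the core in capitals.
Ncoa4: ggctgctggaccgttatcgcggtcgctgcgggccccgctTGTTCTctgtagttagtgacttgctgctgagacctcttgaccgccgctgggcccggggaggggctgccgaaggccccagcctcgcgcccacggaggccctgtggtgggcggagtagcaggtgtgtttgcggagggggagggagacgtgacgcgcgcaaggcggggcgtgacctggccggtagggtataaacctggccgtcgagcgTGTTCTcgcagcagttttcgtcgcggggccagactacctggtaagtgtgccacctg
Ncoa1: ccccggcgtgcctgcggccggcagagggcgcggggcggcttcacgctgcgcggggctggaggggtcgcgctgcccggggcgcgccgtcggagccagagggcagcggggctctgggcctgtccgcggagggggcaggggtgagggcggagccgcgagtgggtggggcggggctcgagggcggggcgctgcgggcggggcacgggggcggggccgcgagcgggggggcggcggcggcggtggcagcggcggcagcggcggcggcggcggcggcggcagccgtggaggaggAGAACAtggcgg
Each of the 3 windows of Ncoa4 held the core, beginning 13, 8 or 6 bases before the start, and the window shown also holds, 211 bases before its start, the core of the window it overlaps. In Ncoa1 the core began 38 bases after the start. Of the 2 windows of Ncor1, 1 held the core, 185 and 12 bases before the start. The windows of Ep300, Crebbp and Med1 held none. These are matches of letters, and no binding was measured here.

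Ncoa4 had the largest log2 change of the 8 genes with testosterone in both genotypes and the largest difference between genotypes under both treatments. In ARNoC/Y, the quasi-likelihood F-test of edgeR, adjusted by the Benjamini-Hochberg method over all genes tested, called 3 of the 8 higher with testosterone (Ncoa1, Ncoa4 and Ncor1) and 3 lower (Ncoa2, Ncoa3 and Crebbp). Among all genes tested it called 36.2%, with 19.4% higher and 16.8% lower. In WT it called 4 higher (Ncoa1, Ncoa4, Ncor1 and Med1) and 1 lower (Ncoa3), where 39.2% of all genes were called, 20.4% higher and 18.8% lower. Of these calls, those of Ncoa1, Ncor1 and Med1 turned direction or were lost when libraries were scaled by total count. Under that scaling 1 gene of the 8 was called higher (Ncoa4) and 4 lower in each genotype. It called 1178 of all 15261 genes tested higher and 7538 lower in ARNoC/Y, and 1099 higher and 9105 lower in WT. The median log2 change of the 8 genes was 0.13 in ARNoC/Y, against -0.01 for all genes tested, and 0.20 in WT, against -0.02, and it was -0.22 in both genotypes under total-count scaling.

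**Figure D1:**
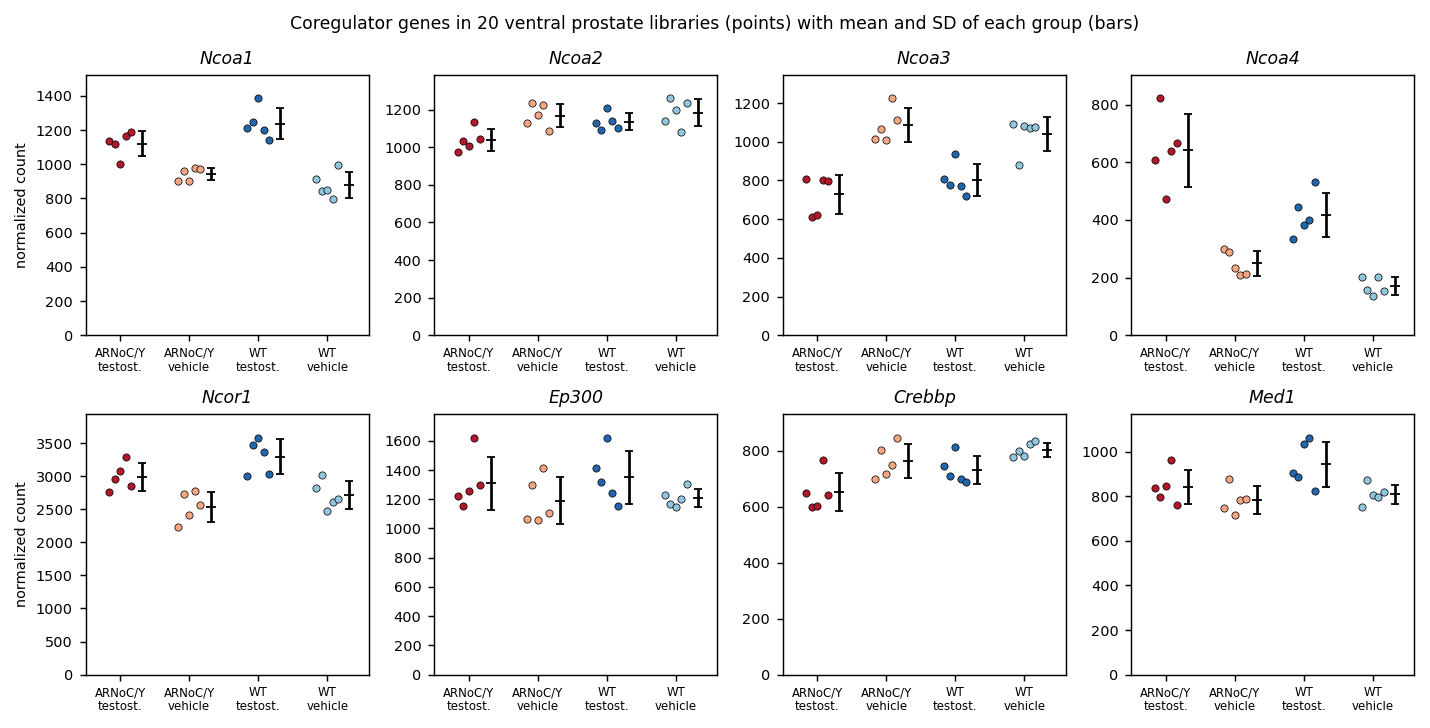
Normalized counts (vertical axes, from 0) of the 8 coregulator genes in each of the 20 libraries, by group along the horizontal axis, with the mean and SD of the 5 libraries of each group beside the points. Ncoa4 sits at 472 to 822 in ARNoC/Y testosterone libraries, above all ARNoC/Y vehicle libraries, and at 333 to 533 in WT testosterone libraries, above all WT vehicle libraries.

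A target gene gives the frame. Fkbp5, a co-chaperone of steroid receptors and a direct androgen target, averaged 9529 ± 1145 normalized counts in ARNoC/Y testosterone libraries and 1693 ± 164 in ARNoC/Y vehicle libraries. In WT it averaged 8575 ± 1195 with testosterone and 1567 ± 164 with vehicle (SD, n = 5 each). Its log2 change was 2.50 in ARNoC/Y and 2.46 in WT, and the difference between these responses was 0.04 with a 95% interval of -0.27 to 0.35.

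Ncoa1 (chr12:4247362-4477182, minus strand), also known as SRC-1, is the founding p160 coactivator. Its normalized counts were 1138, 1117, 999, 1165 and 1188 in ARNoC/Y testosterone libraries, against 905, 959, 899.8, 976 and 974 in ARNoC/Y vehicle libraries. They were 1213, 1246, 1387, 1200.5 and 1143 in WT testosterone libraries, against 914, 842, 850, 796 and 997 in WT vehicle libraries. In each genotype every testosterone library was above every vehicle library. Of the 8 genes, 3 (Ncoa1, Ncoa3 and Ncoa4) were separated in this way in ARNoC/Y, where 23.1% of all genes tested were, and 2 (Ncoa1 and Ncoa4) in WT, where 27% were. Ncoa1 rose by 0.26 ± 0.06 (log2, SE) in ARNoC/Y, or 1.19-fold (edgeR adjusted p 0.00367), but stood at -0.089 under total-count scaling. In WT it rose by 0.50 ± 0.06, or 1.42-fold (edgeR adjusted p 4.13e-06), but stood at 0.08 under total-count scaling, where it was not called (adjusted p 0.331). The ARNoC/Y response minus the WT response was -0.24, with a 95% interval of -0.43 to -0.05. This was the one interaction among the 8 genes with an unadjusted p under 0.05 (0.0143), and it did not pass adjustment (edgeR adjusted p 0.477).

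Ncoa2 (chr1:13139105-13374083, minus strand), the p160 coactivator also called TIF2 or GRIP1, differed little between the groups. It had 975, 1033, 1005, 1134 and 1043 normalized counts in ARNoC/Y testosterone libraries, against 1131, 1234, 1169, 1223 and 1083 in ARNoC/Y vehicle libraries. It had 1129, 1091, 1208, 1141 and 1104 in WT testosterone libraries, against 1138, 1260, 1197, 1083 and 1233 in WT vehicle libraries. The testosterone and vehicle libraries overlapped in both genotypes. In ARNoC/Y the log2 change was -0.16 ± 0.06 (SE, 1.12-fold lower, edgeR adjusted p 0.0256), a call that was lost without ARNoC/Y vehicle library 2 (adjusted p 0.0636) or 4 (0.0595). In WT the log2 change was -0.05, with a 95% interval of -0.17 to 0.06 (edgeR adjusted p 0.487), and under total-count scaling it was called lower at -0.47.

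Ncoa3 (chr2:165992636-166073242, plus strand), the p160 coactivator also called AIB1 or SRC-3, was lower with testosterone in both genotypes. Its normalized counts were 806, 609.9, 623, 802 and 799 in ARNoC/Y testosterone libraries, against 1016, 1066, 1007, 1225 and 1114 in ARNoC/Y vehicle libraries. In WT they were 808, 777, 937, 769 and 719 with testosterone, against 1091, 879, 1081, 1072 and 1076 with vehicle. The ARNoC/Y groups did not overlap, while in WT the highest testosterone library, at 937, lay above vehicle library 2, at 879. Ncoa3 fell by 0.57 on the log2 scale in ARNoC/Y (SE 0.09, 1.48-fold, edgeR adjusted p 6.57e-05) and by 0.37 in WT (SE 0.09, 1.29-fold, edgeR adjusted p 0.00359). Under total-count scaling the values were -0.91 in ARNoC/Y and -0.79 in WT. The difference between the responses was -0.20, with a 95% interval of -0.47 to 0.07. Of its exon bases, 1.95% overlap Sulf2 on the other strand, and the strand setting of the counting was not given in the sources used here.

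Ncoa4, also called ARA70, was first described as a partner of the androgen receptor and is also the cargo receptor that delivers ferritin to autophagy. It had 607, 822, 472, 638 and 666 normalized counts in ARNoC/Y testosterone libraries, against 301, 289, 233, 209 and 214 in ARNoC/Y vehicle libraries. It had 333, 443, 382, 398 and 533 in WT testosterone libraries, against 204, 157, 137, 201 and 153 in WT vehicle libraries. Testosterone and vehicle libraries did not overlap in either genotype. The means were 641 ± 126 in ARNoC/Y with testosterone, 249 ± 42.7 in ARNoC/Y with vehicle, 418 ± 75.4 in WT with testosterone and 170 ± 30.2 in WT with vehicle (SD, n = 5 each). Ncoa4 rose 2.58-fold in ARNoC/Y (log2 1.36 ± 0.15 SE, edgeR adjusted p 7.59e-07) and 2.47-fold in WT (log2 1.31 ± 0.16 SE, edgeR adjusted p 1.66e-06). The 2 responses differed by 0.06 on the log2 scale, with a 95% interval of -0.39 to 0.51. Its spread between libraries of a group, a coefficient of variation of 17.1% to 19.6%, was wider than that of the other 7 genes, at 3.12% to 14.0%.

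The counts given to the pseudogene rose with those of Ncoa4, though the split of reads between the 2 genes is uncertain. Gm6768 averaged 417 ± 49.6 normalized counts in ARNoC/Y testosterone libraries, 171 ± 28.4 in ARNoC/Y vehicle libraries, 313 ± 51.1 in WT testosterone libraries and 140 ± 22.5 in WT vehicle libraries (SD, n = 5 each). The counts given to Gm6768 rose by 1.28 (log2) in ARNoC/Y (edgeR adjusted p 3.28e-07) and by 1.17 in WT (edgeR adjusted p 1.28e-06). When the counts of both genes were summed, an alternative chosen after seeing the data, the log2 change with testosterone was 1.33 in ARNoC/Y (edgeR adjusted p 3.1e-07) and 1.25 in WT (edgeR adjusted p 8.64e-07). So the call with testosterone was also made on the reads of both genes together.

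**Figure D2:**
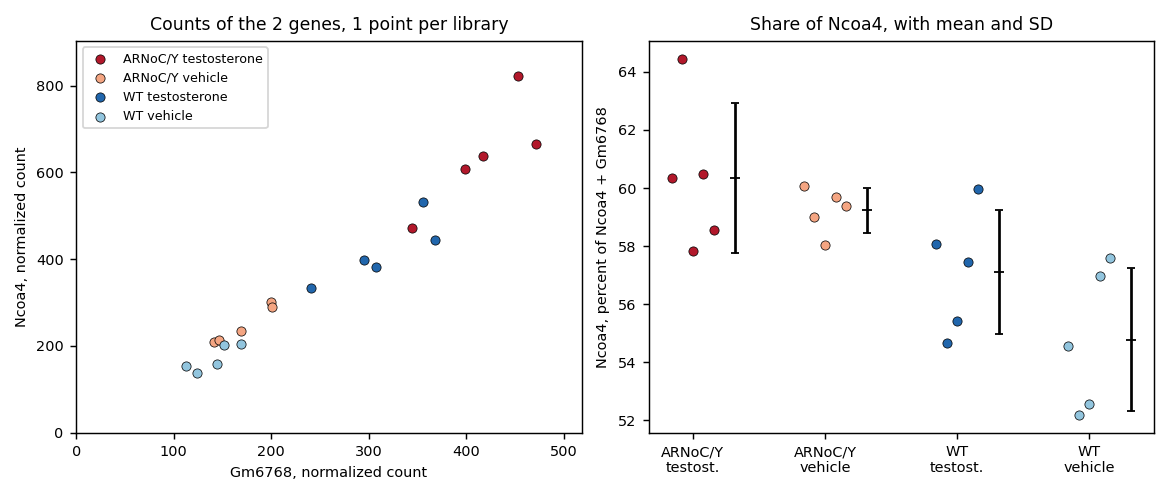
Left, normalized counts of Ncoa4 (vertical axis) against those of Gm6768 (horizontal axis), 1 point per library, coloured by group; both genes average highest in the ARNoC/Y testosterone group, at 641 for Ncoa4 and 417 for Gm6768. Right, Ncoa4 as a percent of the sum of both genes in each library, with the mean and SD per group on an axis that does not start at 0; it was 57.8% to 64.5% in ARNoC/Y testosterone, 58.0% to 60.1% in ARNoC/Y vehicle, 54.7% to 60.0% in WT testosterone and 52.2% to 57.6% in WT vehicle libraries.

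Between genotypes, Ncoa4 was the one gene of the 8 that was called. With testosterone it was 1.53-fold higher in ARNoC/Y than in WT (log2 0.62 ± 0.15 SE, edgeR adjusted p 0.0396), 1 of 8 genes called, where 1.69% of all genes were called, 0.681% higher and 1.01% lower. The groups overlapped, since ARNoC/Y library 3, at 472, lay below WT library 5, at 533; 0 of the 8 genes were free of overlap there, as against 3.85% of all genes tested. The call was lost in 8 of the 20 fits that left out 1 library, namely without WT testosterone library 1, 2, 3 or 4 or ARNoC/Y testosterone library 1, 2, 4 or 5, with adjusted p up to 0.129. It was also lost with no filter on low counts (adjusted p 0.0514), with the testosterone groups fitted alone (0.0763) and with Gm6768 counts added (log2 0.53, adjusted p 0.0524). With vehicle the log2 difference between ARNoC/Y and WT was 0.56 ± 0.16 (SE, 95% interval 0.23 to 0.88), and every ARNoC/Y library, at 209 or more, was above every WT library, at 204 or less. Such a separation was found for 1 of the 8 genes and for 1.76% of all genes tested. It did not pass adjustment (edgeR adjusted p 0.187), and 0 of the 8 genes were called with vehicle, where 0.321% of all genes were. DESeq2, limma-voom and limma-trend also called 0 of the 8 there, and 1 gene, Ncoa4, had an unadjusted p under 0.05 (0.00184). Gm6768 itself was not called between genotypes (log2 0.41 with testosterone, edgeR adjusted p 0.13, and 0.30 with vehicle, adjusted p 0.636).

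The 7 other genes were not called between genotypes. With testosterone their log2 differences, ARNoC/Y minus WT, ran from -0.16 (Med1) to -0.04 (Ep300), against a median of 0.01 for all genes tested. That of Ep300 turned to 0.05 under total-count scaling, to 0.026 without WT testosterone library 3 and to 0.00062 without ARNoC/Y testosterone library 2. The 95% intervals of Ncoa1 (-0.27 to -0.0041), Ncoa2 (-0.24 to -0.01) and Crebbp (-0.31 to -0.01) lay below 0 before adjustment, with edgeR adjusted p of 0.326, 0.304 and 0.316. With vehicle the differences ran from -0.09 (Ncor1) to 0.11 (Ncoa1). No interaction was called among the 8 genes or among all genes tested (0 called by edgeR; 24 by DESeq2, 0 by limma-voom and 1 by limma-trend), while 8.56% of all genes had an unadjusted p under 0.05. An interval that spans 0 does not show that the genotypes respond alike.

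**Figure D3:**
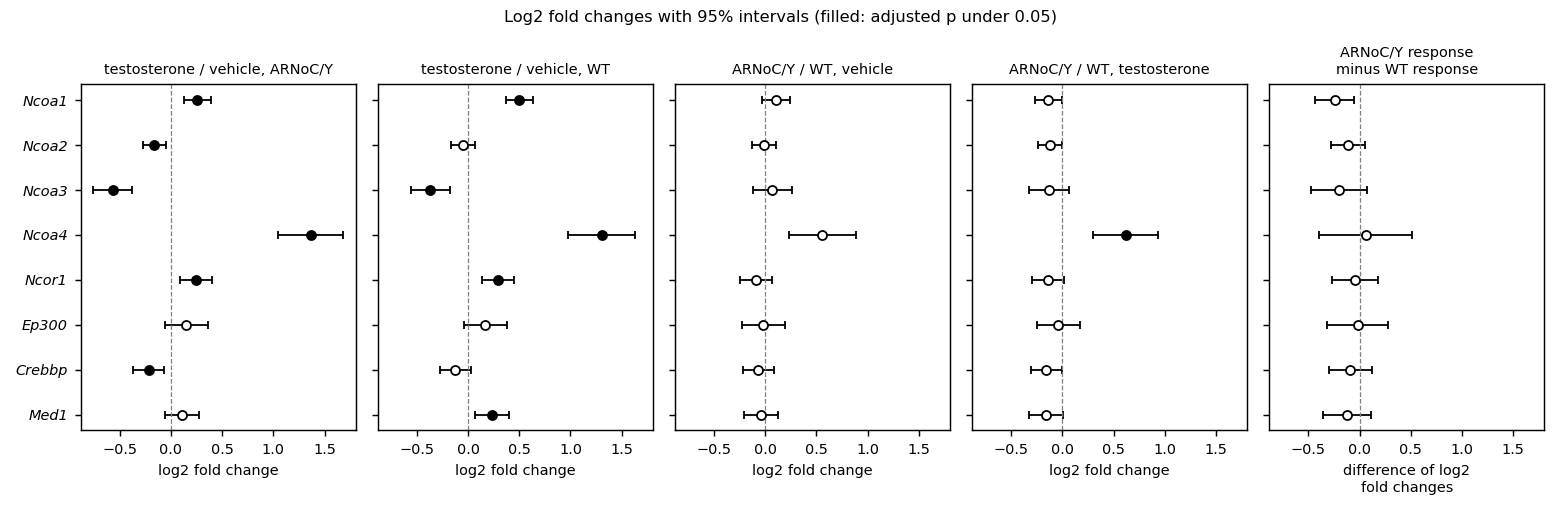
Log2 fold changes (horizontal axes) of the 8 coregulator genes in the 5 comparisons, with 95% intervals from the edgeR fit; filled points have an adjusted p under 0.05. Ncoa4 is called higher in 3 panels, at 1.36, 1.31 and 0.62, and no gene is called with vehicle or for the difference between responses; under total-count scaling the testosterone changes of Ncor1, Ep300 and Med1 in both genotypes and of Ncoa1 in ARNoC/Y turn to lower.

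Ep300 and Crebbp encode p300 and CBP, closely related histone acetyltransferases that p160 coactivators bring to the receptor. Ep300 (chr15:81585351-81652077, plus strand) had 1220.2, 1153, 1253, 1620.3 and 1299 normalized counts in ARNoC/Y testosterone libraries, against 1067, 1300.2, 1056, 1415 and 1106 in ARNoC/Y vehicle libraries. It had 1414, 1321, 1622, 1245 and 1151 in WT testosterone libraries, against 1227, 1167, 1145, 1202 and 1301 in WT vehicle libraries. The groups overlapped throughout, and Ep300 was called in none of the 5 comparisons with TMM scaling. Its log2 change with testosterone was 0.15 in ARNoC/Y (95% interval -0.06 to 0.36) and 0.17 in WT (95% interval -0.04 to 0.38), and under total-count scaling -0.20 in ARNoC/Y (adjusted p 0.136) and -0.26 in WT, where it was called lower (edgeR adjusted p 0.0493).

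Crebbp (chr16:4081328-4213997, minus strand) had 648, 598, 604, 768 and 643 normalized counts in ARNoC/Y testosterone libraries, against 699, 803, 717, 749 and 847 in ARNoC/Y vehicle libraries. It had 747, 711, 814, 698 and 689.8 in WT testosterone libraries, against 777, 800.1, 783, 825 and 834 in WT vehicle libraries. In each genotype 1 testosterone library, ARNoC/Y library 4 at 768 and WT library 3 at 814, reached into the range of the vehicle libraries. Crebbp fell by 0.22 on the log2 scale in ARNoC/Y (SE 0.07, 1.16-fold, edgeR adjusted p 0.0233), a call lost without ARNoC/Y vehicle library 2 (adjusted p 0.0531) or 5 (0.0715). In WT the change was -0.13 and was not called (edgeR adjusted p 0.173). It was called there without WT testosterone library 3 (log2 -0.20, adjusted p 0.0338) or ARNoC/Y testosterone library 4 (log2 -0.17, adjusted p 0.034) and with total-count scaling (log2 -0.55).

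Med1 (chr11:98152154-98193293, minus strand) encodes the Mediator subunit that nuclear receptors contact. It had 839, 796, 846, 963 and 759.7 normalized counts in ARNoC/Y testosterone libraries, against 747, 879.6, 718, 784 and 789 in ARNoC/Y vehicle libraries. It had 907, 888, 1036, 1064 and 825 in WT testosterone libraries, against 754, 871, 806, 796 and 818 in WT vehicle libraries. The groups overlapped in both genotypes. In WT it was 1.17-fold higher with testosterone (log2 0.23 ± 0.08 SE, edgeR adjusted p 0.0269) but -0.19 under total-count scaling. The call in WT was lost in 8 of the 20 fits that left out 1 library (those without library 1 or 4 of WT with vehicle, library 1, 2, 3 or 4 of WT with testosterone, or library 1 or 3 of ARNoC/Y with testosterone), with adjusted p up to 0.141, and with no filter on low counts (0.10). In ARNoC/Y the log2 change was 0.11 (95% interval -0.06 to 0.27, edgeR adjusted p 0.30), and -0.23 under total-count scaling, where it was called lower (adjusted p 0.0328).

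Ncor1 (chr11:62316426-62458541, minus strand), the nuclear receptor corepressor that carries histone deacetylase 3, was the corepressor of the 8. It had 2761, 2957, 3086, 3295 and 2861 normalized counts in ARNoC/Y testosterone libraries, against 2227, 2735, 2408, 2773 and 2559.5 in ARNoC/Y vehicle libraries. It had 3012, 3479, 3587, 3375 and 3040.3 in WT testosterone libraries, against 2824, 3026, 2472, 2609.8 and 2657 in WT vehicle libraries. The lowest testosterone library of each genotype lay just below the highest vehicle library, 2761 against 2773 in ARNoC/Y and 3012 against 3026 in WT. Ncor1 rose by 0.24 ± 0.07 (log2, SE) in ARNoC/Y (1.18-fold, edgeR adjusted p 0.0151) and by 0.29 ± 0.07 in WT (1.22-fold, edgeR adjusted p 0.00464), but stood at -0.10 in ARNoC/Y and -0.14 in WT under total-count scaling. In ARNoC/Y the call was lost without vehicle library 1 (adjusted p 0.0507) or testosterone library 3 (0.0647) or 4 (0.0997), with no filter on low counts (0.0685) and with the ARNoC/Y groups fitted alone (0.0609).

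**Figure D4:**
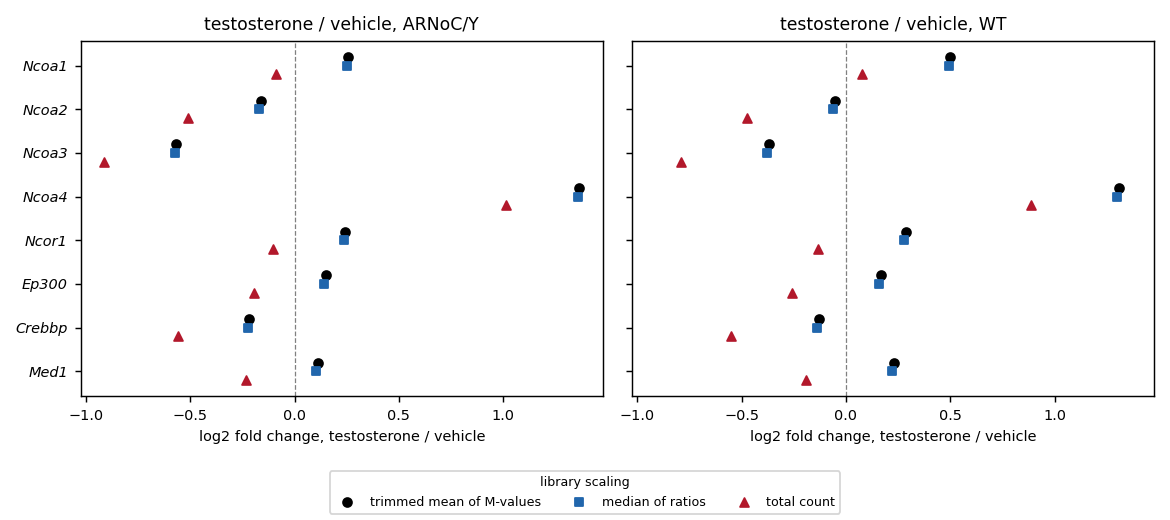
Log2 fold change with testosterone (horizontal axis) of the 8 coregulator genes in ARNoC/Y and in WT under 3 scalings of the libraries: trimmed means of M-values, median of ratios and total count. The first 2 scalings nearly coincide, while total-count values lie lower, so that of the 8 genes Ncoa4 alone is called higher under all 3 in each genotype, and the changes of Ncor1, Ep300 and Med1 in both genotypes and of Ncoa1 in ARNoC/Y turn to lower.

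Levels of the genes were compared with each other per kilobase of annotated exon. Ncoa4 enters with only the counts given to it, without those given to Gm6768, so its place in the order is uncertain. Averaged over the groups, Ncor1 had 225 normalized counts per kilobase, followed by Ncoa1 with 122, Ncoa3 with 116, Med1 with 96.4, Ep300 with 88.6, Ncoa2 with 72.3, Crebbp with 54.5 and Ncoa4 with 39.5. The ranges over libraries of Ncor1 and Ncoa1, and of Ncoa2 and Crebbp, overlapped in 0 of the 4 groups. Med1 and Ep300 overlapped in 4 of 4 groups and were not separated, and the other neighbours in that order overlapped in 1 or 2 groups. The order turned between groups. Ncoa3 was above Ncoa1 with vehicle, at 137.5 against 110 in ARNoC/Y and 132 against 103 in WT, and below it with testosterone. In ARNoC/Y testosterone libraries Ncoa4 averaged above Ncoa2, at 66.4, and Crebbp, at 48.2. With testosterone Ncoa4 reached 68.4 ± 13.4 per kilobase in ARNoC/Y, against 26.6 ± 4.56 with vehicle, and 44.6 ± 8.06 in WT, against 18.2 ± 3.22 with vehicle (SD, n = 5 each). By the length of the longest transcript in place of all exons, Ncor1 and Ncoa1 kept their places, Ncoa2 came next at 138 and Crebbp came last at 68.2.

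Within groups, the 7 genes other than Ncoa4 tended to deviate in the same direction, weakly in some pairs. The correlation of their deviations from the group means was positive in 21 of 21 pairs (r 0.08 to 0.70 over 20 libraries) and negative in 7 of 7 pairs with Ncoa4 (r -0.32 to -0.13). All these values share the library and its scaling, and the share of positive pairs among other genes is not given here. All 7 genes were above their group mean in WT testosterone library 3, the shallowest, and in ARNoC/Y testosterone library 4, the deepest. They were below it in ARNoC/Y testosterone library 2, ARNoC/Y vehicle library 1 and WT testosterone library 5. The deviations of Ncoa4 correlated with depth at r 0.46 and with the stromal score at r -0.09, and those of the other 7 genes lay between -0.25 and 0.15 for depth and between -0.17 and 0.33 for the stromal score.

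Among 11624 other genes, those with the most similar pattern over the 20 libraries were identified by Pearson's r of log2 values. For Ncoa4 these were Gm6768 (r 0.98, and 0.87 within groups), from which its reads are not surely split, and Chp1 (0.97, and 0.65 within groups). For Ncoa1 they were Igf2r (0.96, 0.76 within groups) and Nbr1 (0.94, 0.60), and for Ncoa3 they were Etl4 (0.96, 0.85) and Heca (0.96, 0.91). Arid1a, a subunit of the SWI/SNF chromatin remodelling complex, led for both Ncoa2 (0.87, 0.73) and Crebbp (0.89, 0.77), followed by Cep128 for Ncoa2 (0.82, 0.76) and Zkscan8 for Crebbp (0.89, 0.74). The closest genes were Setd7 (0.94, 0.84) and Usp34 (0.94, 0.81) for Ncor1, Tnpo1 (0.90, 0.89) and Rfx7 (0.87, 0.85) for Ep300, and Ubn1 (0.90, 0.89) and Smg1 (0.89, 0.81) for Med1. The libraries fall into treatment groups that differ, so the values within groups are the ones free of the group means.

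Lists of 105 other coregulator genes were read for comparison, by their counts. Of 38 other coactivators, 11 were called higher and 3 lower with testosterone in ARNoC/Y, and 12 higher and 4 lower in WT. The total is 36.8% of them in ARNoC/Y and 42.1% in WT, close to the 36.2% and 39.2% of all genes called in ARNoC/Y and in WT. Under total-count scaling 1 was called higher and 18 lower in ARNoC/Y, and 1 higher and 23 lower in WT. Of all 15261 genes tested, 1178 were then called higher and 7538 lower in ARNoC/Y, and 1099 higher and 9105 lower in WT. Their median log2 change was 0.07 in ARNoC/Y and 0.06 in WT. Cited2, which binds p300 and CBP, averaged 2864 ± 593 normalized counts with testosterone and 468 ± 60.7 with vehicle in ARNoC/Y, and 2567 ± 314 with testosterone and 413 ± 70.4 with vehicle in WT (SD, n = 5 each). It rose 6.14-fold in ARNoC/Y (log2 2.62, edgeR adjusted p 3.59e-11) and 6.24-fold in WT (log2 2.64, adjusted p 3.82e-11). Tmf1, known as ARA160, rose by 0.58 (log2) in ARNoC/Y and 0.62 in WT, Pias3, a SUMO ligase, by 0.28 in ARNoC/Y and 0.51 in WT, and Rnf4, a ubiquitin ligase, by 0.51 in ARNoC/Y and 0.39 in WT. None of these 3 was called under total-count scaling, where Pias3 stood at -0.071 in ARNoC/Y and Rnf4 at -0.027 in WT.

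Of 19 tested corepressor genes, of 22 listed, 3 were called higher and 6 lower in ARNoC/Y, and 4 higher and 4 lower in WT, which is 47.4% of them in ARNoC/Y and 42.1% in WT, against 36.2% of all genes in ARNoC/Y and 39.2% in WT. Under total-count scaling 2 were called higher and 14 lower in ARNoC/Y, and 2 higher and 15 lower in WT. That scaling called 1178 of all 15261 genes higher and 7538 lower in ARNoC/Y, and 1099 higher and 9105 lower in WT. Nrip1, or RIP140, a corepressor that binds nuclear receptors with their ligand, averaged 4200 ± 416 normalized counts with testosterone and 1496 ± 181 with vehicle in ARNoC/Y, and 5681 ± 283 with testosterone and 1459 ± 166 with vehicle in WT (SD, n = 5 each). It rose 2.82-fold in ARNoC/Y (log2 1.495, edgeR adjusted p 1.37e-10) and 3.92-fold in WT (log2 1.97, adjusted p 3.54e-12). With testosterone it was 1.35-fold lower in ARNoC/Y than in WT (log2 -0.43 ± 0.09 SE, edgeR adjusted p 0.0114), without overlap of the groups, and was the 1 corepressor called between genotypes. The difference between its responses was -0.47 and did not pass adjustment (95% interval -0.73 to -0.22, edgeR adjusted p 0.335). Sin3b, a scaffold of histone deacetylases, rose by 1.41 (log2) in ARNoC/Y and 1.20 in WT. Gps2, a subunit of the complex of Ncor1, fell by 0.51 in ARNoC/Y and 0.42 in WT.

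The subunits of Mediator and of the SWI/SNF complex came next. Of 32 Mediator subunits other than Med1, 4 were called higher and 3 lower in ARNoC/Y, and 4 higher and 1 lower in WT. The total is 21.9% of them in ARNoC/Y and 15.6% in WT, where 36.2% of all genes were called in ARNoC/Y and 39.2% in WT. Under total-count scaling 1 was called higher and 24 lower in ARNoC/Y, and 2 higher and 24 lower in WT. That scaling called 1178 of all 15261 genes higher and 7538 lower in ARNoC/Y, and 1099 higher and 9105 lower in WT. Med22 rose 3.18-fold in ARNoC/Y (8289 ± 686 normalized counts with testosterone and 2616 ± 226 with vehicle; SD, n = 5 each) and 2.92-fold in WT (7293 ± 444 with testosterone and 2511 ± 194 with vehicle), with edgeR adjusted p of 4.28e-12 and 9.86e-12. Med4 fell by 0.29 (log2) in ARNoC/Y and 0.28 in WT, and Med9 was called higher by 0.27 in ARNoC/Y and 0.22 in WT. The call of Med9 in ARNoC/Y was lost with no filter on low counts (adjusted p 0.0716), with the ARNoC/Y groups alone (0.0693) and without ARNoC/Y testosterone library 2 (0.0878) or 3 (0.0627). That in WT was lost in 12 of the 20 fits that left out 1 library, with no filter (0.154), with the WT groups alone (0.056) and with the stromal score (0.0934). Under total-count scaling Med9 stood at -0.083 in ARNoC/Y and was called lower at -0.20 in WT. Med12l rose by 0.79 in ARNoC/Y, a call lost under total-count scaling (log2 0.45, adjusted p 0.135) and without vehicle library 1 or testosterone library 4 of ARNoC/Y, and by 1.10 in WT, uncertain values since 15.3% of its exon bases overlap Igsf10 on the other strand. Of 13 SWI/SNF subunits, 3 were called higher and 3 lower in ARNoC/Y, and 3 higher and 1 lower in WT, which is 46.2% of them in ARNoC/Y and 30.8% in WT. Under total-count scaling 2 were called higher and 10 lower in each genotype. Arid2 rose by 0.63 in ARNoC/Y and 0.78 in WT. Smarcd3 rose by 1.47 in ARNoC/Y and 1.17 in WT, uncertain since 48.2% of its exon bases overlap Chpf2. Smarcd1 fell by 0.30 in ARNoC/Y and 0.32 in WT. Smarca4, an ATPase of the complex, was called higher by 0.22 in ARNoC/Y and 0.33 in WT, but stood at -0.12 in ARNoC/Y and -0.091 in WT under total-count scaling. Its call in ARNoC/Y was lost in 9 of the 20 fits that left out 1 library, with no filter (adjusted p 0.105) and with the ARNoC/Y groups alone (0.102). Under total-count scaling the medians of all 4 lists were below 0 in both genotypes, from -0.55 to -0.27, as was that of all genes.

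**Figure D5:**
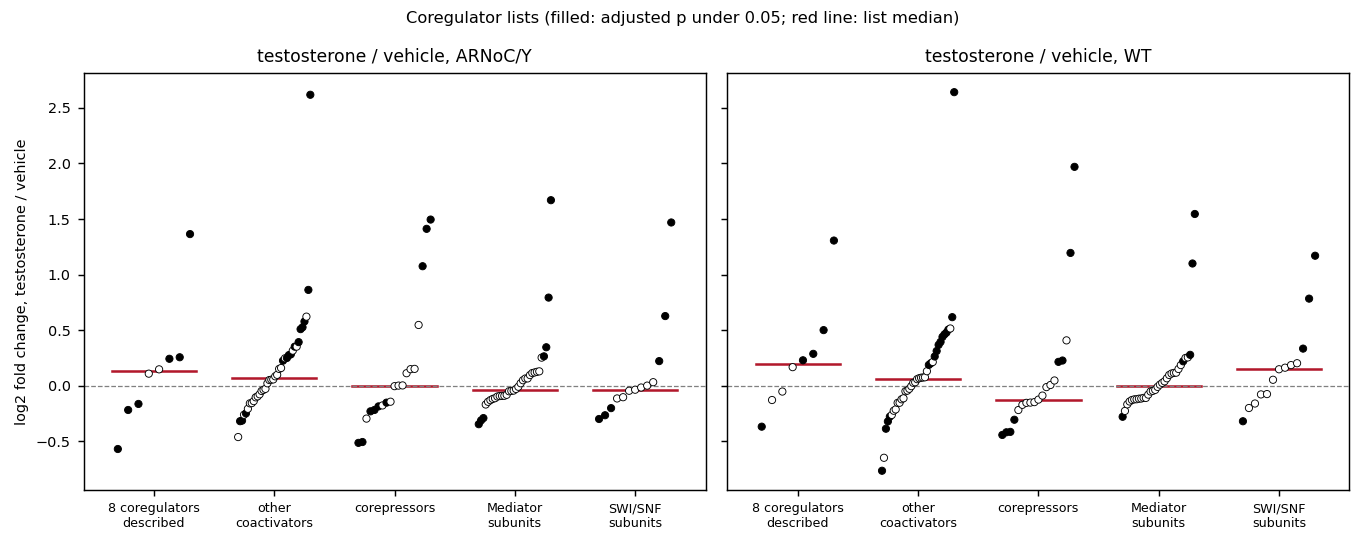
Log2 fold change with testosterone of each tested gene of the 8 coregulators and of the 4 other lists, in ARNoC/Y and in WT, with called genes filled and the median of each list marked. The highest points are Cited2 among the other coactivators (2.62 in ARNoC/Y and 2.64 in WT) and Nrip1 among the corepressors (1.495 in ARNoC/Y and 1.97 in WT); under total-count scaling the median of each list lies below 0.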

How the data were processed

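Total RNA of snap-frozen ventral prostate went into Illumina TruSeq libraries, per the labels' protocols. The build mm10 and the tools HISAT2, HTSeq, DESeq2, FastQC 0.11.7 and SAMtools 1.5 are named in the submitters' processing notes. Not given in the sources used here are the annotation used, whether counting was stranded, and how reads were filtered. One table holds raw counts for 43472 gene symbols, as the authors deposited them. The other deposited table is a signal, each count scaled by the DESeq2 size factor of its library, and covers the 23221 genes with a summed count of 4 or more.

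The test took the 15261 genes that reached 10 normalized counts in 5 or more of the 20 libraries. Raw counts were scaled by TMM and fitted with edgeR 4.0.16 (R 4.3.3) with 1 mean per group over all 20 libraries and no covariate, and p-values of the quasi-likelihood F-test were adjusted by Benjamini-Hochberg over all genes at 0.05. The common biological CV came to 0.214. The 4 single comparisons and the interaction (the ARNoC/Y response minus the WT response) were taken from this fit; log2 intervals are 95%. The test was checked on simulated data for testosterone in WT. It recovered 95% of 100 genes given a log2 change of 1 and 52% of 100 given 0.5, with 13 false calls. Changes of 0.5 or less can thus be missed. Libraries of a group differed by more than counting noise in each of 40 pairs (chi-square 7.97 to 42.9 per degree of freedom), so none was treated as a library deposited again; this does not show that they come from separate animals. Replicate numbers only name libraries and make no pairs.

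The alternatives were DESeq2 1.42.0, limma-voom and limma-trend (limma 3.58.1, pseudocount 1), median-of-ratios and total-count scaling, no filter and a stricter filter (50 counts), the compared groups alone, a stromal score as covariate, leaving out both stroma-poor vehicle libraries (ARNoC/Y 5 and WT 2), and leaving out each library in turn. WT testosterone libraries 2 and 1, with stromal scores of 4.965 and 5.88, lay below WT vehicle library 2, at 6.002, but were kept. Leaving out the stroma-poor libraries was thus done for the vehicle groups only. Coordinates, exon lengths and transcripts came from GENCODE M21, which uses the build mm10, and promoters from RefSeq (GRCm38.p6). The sequences of Ncoa4 and Gm6768 were aligned with Biopython 1.88. Named besides the 8 genes and Fkbp5 were, per list and comparison, the 3 called genes with the smallest adjusted p (with their values in both genotypes), the 2 genes most alike each member by r among genes averaging 50 normalized counts or more, and Gm6768; 1 other gene of that rule is not reported here. The 8 genes and the lists were chosen with earlier results of these data known, so no count over them is independent support. The figures were made in matplotlib 3.10.9. No read was aligned or counted again.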

Additional observations from a re-analysis of the deposited data

Results flagged for a closer look

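A single library stood apart from the other 4 of its group, by Dixon's test, in 1 of 36 groups of 5 (the 8 genes and Fkbp5 in 4 groups each); chance alone gives about 1 in 20. Ncoa3 had 879.2 normalized counts in WT vehicle library 2, against 1072 to 1091 in the other 4.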

How the results depend on the processing

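Of 8 genes in 5 comparisons, recomputed under 11 alternatives where each applied, 376 values kept their direction and side of the threshold, 12 lost a call, 4 gained one and 11 turned sign; of these 11, 4 also lost a call and 2 gained one. Leaving out 1 library at a time, 757 kept both, 23 lost a call, 2 gained one and 18, all uncalled before and after, turned sign.

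Total-count scaling changed most. Genes called with testosterone became 8716 in ARNoC/Y and 10204 in WT, genes called between genotypes with testosterone 436, and interactions 2. Of the 8 genes, 1 was then called higher and 4 lower in each genotype. Among all 15261 genes tested, 1178 were called higher and 7538 lower in ARNoC/Y, and 1099 higher and 9105 lower in WT. With testosterone, log2 values turned to -0.089 for Ncoa1 in ARNoC/Y, to -0.10 in ARNoC/Y and -0.14 in WT for Ncor1, to -0.20 in ARNoC/Y and -0.26 in WT for Ep300, to -0.23 in ARNoC/Y and -0.19 in WT for Med1, to -0.083 in ARNoC/Y and -0.20 in WT for Med9, to -0.12 in ARNoC/Y and -0.091 in WT for Smarca4, to -0.071 for Pias3 in ARNoC/Y and to -0.027 for Rnf4 in WT. The interaction turned to 0.034 for Ncor1 and 0.060 for Ep300, and the genotype difference of Ep300 with testosterone to 0.049. The cause was not tested.

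DESeq2 called 137 genes between genotypes with vehicle, 493 with testosterone and 24 interactions. The compared groups alone gave 19 genes with vehicle, and the stromal covariate 98 with vehicle and 429 with testosterone. Limma-trend called 1 interaction and the fit with no filter 2. Between genotypes with testosterone, 0 of the 8 genes were called with no filter, with the compared groups alone or with Gm6768 counts added to Ncoa4, an alternative chosen after seeing the data. Without both stroma-poor vehicle libraries, the vehicle genotype difference turned to 0.037 for Ncoa2 and the interaction of Fkbp5 to -0.032, and Crebbp lost its call in ARNoC/Y (adjusted p 0.0786). The causes were not tested.

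Leaving out 1 library, 1 to 3 of the 8 genes were called lower in ARNoC/Y and 1 to 2 in WT, and 0 to 1 higher between genotypes with testosterone. Genes called numbered 29 to 76 between genotypes with vehicle, 154 to 286 with testosterone and 0 to 2 for the interaction. Values near 0 crossed it: Ncoa2 with vehicle (-0.043 to 0.015), Ep300 with vehicle (-0.085 to 0.020) and testosterone (-0.13 to 0.026), and the interactions of Ncoa4 (-0.043 to 0.16), Ep300 (-0.11 to 0.050) and Fkbp5 (-0.029 to 0.10). With the longest transcript as length, levels per kilobase moved by more than 1 SD of the group in 26 of 32 values; the change is 1 factor per gene.

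No paired analysis was possible because replicate numbers were given in the order of the labels and pair no libraries. With 5 libraries a group, the genotype differences of Ncoa1, Ncoa2 and Crebbp with testosterone did not pass adjustment over all genes tested. They are left undecided.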

Other observations

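Ncoa4 made up a larger part of the summed counts of Ncoa4 and Gm6768 in ARNoC/Y than in WT. With vehicle its share was 59.2% ± 0.779 in ARNoC/Y and 54.8% ± 2.47 in WT (SD, n = 5 each), a difference of 4.46 percentage points. All ARNoC/Y libraries were above all WT libraries, and an exact two-sided permutation test gave 0.00794, the smallest p that 5 against 5 libraries allow (0.0159 adjusted over the 2 tests). With testosterone the share was 60.3% ± 2.58 in ARNoC/Y and 57.1% ± 2.13 in WT (SD, n = 5 each), a difference of 3.23 points with overlapping groups (exact permutation p 0.0476, adjusted 0.0476). That result passed 0.05 in 3 of 10 recomputations that left out 1 library (differences 2.20 to 3.94 points). Leaving out 1 library, the vehicle difference was 3.81 to 5.17 points. The exact permutation p was 0.0159 each time, a value that full separation of the groups fixes once 1 library is left out. Both tests were chosen after the data were seen, and what sets the share was not tested.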
